A study of Homo sapiens with 12 samples.

Results

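Of the 19225 rows of the deposited count table, 81 were cytosolic ribosomal protein genes. They were chosen by symbol alone, as every RPL or RPS symbol that ends in a number or in a number and one of the letters A, X, L or Y, together with the stalk genes RPLP0, RPLP1 and RPLP2 and the laminin receptor gene RPSA. Kinases of ribosomal protein S6 and binding partners such as RPS19BP1 were left out. The large subunit had 49 of these genes and the small subunit 32. HN6 and HN30 are established cell lines of oral squamous cell carcinoma (OSCC). The cells of every group had been transfected with Lipofectamine RNAiMAX, carrying a scrambled siRNA (NC), siFAT1-1 or siFAT1-2, and poly(A) RNA was taken after 24 h. The 6 conditions were thus HN6 NC, HN6 siFAT1-1, HN6 siFAT1-2, HN30 NC, HN30 siFAT1-1 and HN30 siFAT1-2, each with 2 repeats made at separate times. Both siRNAs together are called FAT1-KD (8 libraries against 4 NC libraries). No untransfected cells were analysed here. The p-values measure the spread of libraries around the terms of each fit. For comparisons with NC within a single line this is the spread between repeats. With the siRNAs pooled or the line as a covariate, it also holds differences between siRNAs, or between lines in the effect of an siRNA. The paper calls the repeats biological, but all are of the same 2 lines.

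Ribosomal proteins are assembled with ribosomal RNA in the nucleolus into the small subunit, which reads the mRNA, and the large subunit, which joins the amino acids. Cells make them in nearly equal amounts, from short and very abundant mRNAs, most of which start with a cytosine followed by an unbroken run of pyrimidines, the 5′ terminal oligopyrimidine tract (TOP). Through this tract the kinase MTOR and the RNA-binding protein LARP1 set how much of the mRNA is translated. RPL5 and RPL11 that are not built into ribosomes can bind MDM2, a ubiquitin ligase, together with 5S rRNA.

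The members shared a feature that the choice by symbol did not use, the first bases of the transcript. A RefSeq start site (GRCh38.p14) was found for 64 of the 81 genes. The motif searched was C at the first transcribed base followed by at least 4 more bases that are each C or T, on the transcribed strand only, and no other motif was searched. It was present in 46 of the 64 genes (71.9%), against 878 of 14450 other genes of the count table (6.08%) and 4.07% of all 35116 start sites of the RefSeq table. A match is a description of the sequence and no proof of regulation. The windows below cover 15 bases before and 15 bases from the annotated start, and capitals mark the pyrimidine run. They are shown because these genes carry the comparisons that follow. RPL24 lies at chr3:101686704-101686733 on the minus strand, RPL27A at chr11:8682777-8682806 on the plus strand, RPL11 at chr1:23691791-23691820 on the plus strand and RPLP0 at chr12:120201097-120201126 on the minus strand. RPS4X, at chrX:72277234-72277263 on the minus strand, and RPS27L, at chr15:63157463-63157492 on the minus strand, had no match at that base.
RPL24: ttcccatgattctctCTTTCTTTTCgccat
RPL27A: ttggcgaaggccttcCTTTTTCgtctgggc
RPL11: cggaagctccgctttCTCTTCCTgctctcc
RPLP0: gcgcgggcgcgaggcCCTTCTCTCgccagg
RPS4X: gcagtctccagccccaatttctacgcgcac
RPS27L: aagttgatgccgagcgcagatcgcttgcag

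The libraries held 26430049 to 47639010 counts each. FAT1, the targeted gene, was at 56.8 and 66.8 CPM (the count scaled to library size with TMM factors) in the HN6 NC libraries. It was at 7.60 and 13.5 in HN6 siFAT1-1 and at 13.2 and 21.4 in HN6 siFAT1-2. In HN30 it was at 13.6 and 14.8 in NC, at 4.85 and 6.25 in siFAT1-1 and at 10.8 and 7.75 in siFAT1-2. Every knockdown library was thus below both NC libraries of its line, but in HN30 FAT1 fell less with siFAT1-2 than with siFAT1-1. Of 8 squamous epithelial markers, 7 were at 1 CPM or more in all 12 libraries, with a summed level of 1526 to 6156 CPM, while KRT14 was between 0 and 2.43 CPM. Of 10 markers of blood, vessel, stromal and muscle cells, 4 stayed below 1 CPM in every library, and the summed level of that list was 52.3 to 276 CPM. In all 12 libraries 3 of them were at 1 CPM or more, namely CD68 (16.1 to 121 CPM), COL1A1 (11.1 to 146 CPM) and ACTA2 (5.01 to 57.0 CPM). PDGFRB was so in 11 libraries.

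The mRNAs of the ribosomal protein genes were short and deep. Their reference transcripts had a median length of 785 nt, against 3269 nt for the other genes tested, and 71 of the 81 had at least 1000 counts in every library. Per length, RPS2 was the most abundant at 1803 CPM per kb, followed by RPL8 at 1517 and RPLP0 at 1477. At the other end, RPL10L, a testis paralog of RPL10, had no count in any library, and RPL3L, the striated muscle paralog of RPL3, had at most 7 counts. These 2 genes were below the count filter, which left 79 of the 81 for testing. RPS10 was the third lowest at 2.58 CPM per kb, with 22 to 98 counts. Its exons overlap on the same strand with those of the read-through gene RPS10-NUDT3, which had no count in any library, so the level of RPS10 is uncertain. RPL17 shares exons in the same way with RPL17-C18orf32. Of other members named below, RPL36 overlaps with HSD11B1L on the same strand (17.6% of its exon bases). RPL10 overlaps with DNASE1L1 (35.9%) and RPS28 with KANK3 (17.2%) on the opposite strand. In GENCODE 44, 77 of the 81 genes have named pseudogenes, 1588 in all, and reads could be split among such copies.

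The 81 genes took between 3.41% and 5.31% of all counts. The share was 3.48% and 4.90% in the HN6 NC repeats, 3.41% and 3.61% in HN6 siFAT1-1, and 3.55% and 3.93% in HN6 siFAT1-2. It was 4.48% and 4.44% in HN30 NC, 3.99% and 3.66% in HN30 siFAT1-1, and 5.31% and 4.91% in HN30 siFAT1-2. In HN30 the 3 conditions did not overlap, with siFAT1-1 below and siFAT1-2 above NC. In HN6 the NC repeats lay farther apart than the knockdown conditions from each other, and the knockdown libraries were all below NC repeat 2 and on both sides of NC repeat 1. In RNA from whole cultures, fewer cells of a kind and less RNA per cell cannot be told apart.

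**Figure D1:**
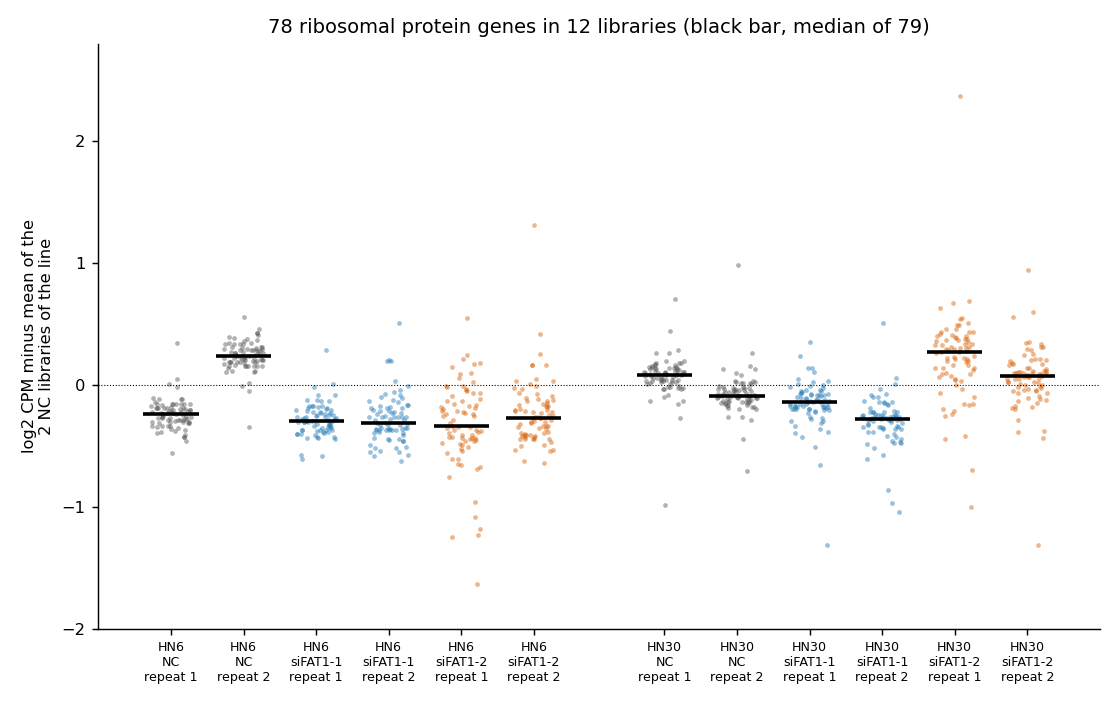
Each point is 1 of 78 tested ribosomal protein genes in 1 library, plotted as its log2 CPM minus the mean of the 2 NC libraries of its line, with the black bar at the median of all 79. The medians were -0.23 and 0.23 in the HN6 NC repeats, -0.27 to -0.34 in the 4 HN6 knockdown libraries, below 0 in both HN30 siFAT1-1 libraries and above 0 in both HN30 siFAT1-2 libraries.

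Gene by gene on the log2 CPM scale, as in the plot of single genes in the 12 libraries, the order of the libraries was partly different. Relative to the mean of the NC libraries of the line, the median gene was at -0.29 and -0.31 in HN6 siFAT1-1, at -0.34 and -0.27 in HN6 siFAT1-2, at -0.14 and -0.28 in HN30 siFAT1-1, and at 0.27 and 0.07 in HN30 siFAT1-2. The NC repeats were 0.47 apart in HN6 and 0.17 apart in HN30. Unlike their shares, the medians of all HN6 knockdown libraries were below that of NC repeat 1 (-0.23). In HN30, siFAT1-1 was below both NC repeats, while siFAT1-2 repeat 2 (0.074) was below NC repeat 1 (0.086). The large and small subunit genes moved alike, with medians of -0.23 and -0.26 in HN6 NC repeat 1 and of 0.23 and 0.29 in HN30 siFAT1-2 repeat 1. Set against the NC library of the same repeat, the HN6 medians were near 0 in repeat 1 (-0.03 for siFAT1-1 and -0.09 for siFAT1-2) and well below it in repeat 2 (-0.57 for both). In HN30 the repeats gave like values, -0.20 and -0.19 for siFAT1-1 and 0.18 and 0.13 for siFAT1-2.

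FAT1-KD against NC over both lines asks whether loss of FAT1 moves these genes whichever siRNA was used. Their median log2 fold change was -0.18, with 71 of 79 below 0, where the median of all 14360 genes tested was 0.02 and 47.7% of them were below 0. No gene passed an adjusted p of 0.05 with edgeR's quasi-likelihood test, where 0.522% of all genes did. At an unadjusted P under 0.05, 9 were lower and 0 higher, against 7.6% and 6.62% of all genes. DESeq2 and limma-voom also called 0. RPL36, a large subunit protein, had the smallest P, with a log2 fold change of -0.40 ± 0.15 (SE) and an adjusted p of 0.235. RPL27A and RPS4X were the 2 genes with all knockdown libraries below both NC libraries of their line, a pattern that 3.06% of all genes had. None had all of them above, as 2.24% of all genes did. The median without HN6 NC repeat 2 was -0.03, and without HN6 NC repeat 1 it was -0.23. The test of a difference between the lines in the effect of FAT1-KD called 0 of the 79 genes with edgeR, DESeq2 or limma-voom, and 0% of all genes. At an unadjusted P under 0.05 it called 0 members, against 1.09% of all genes higher and 1.11% lower. Below 0 were 72 of the 79 genes (51.7% of all genes). The smallest P was that of RPL18 (log2 difference -0.49 ± 0.31, adjusted p = 1.00), and among genes above 0 that of RPS10 (1.01 ± 0.74, adjusted p = 1.00).

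Within HN6, both siRNAs gave a median below 0, -0.33 for siFAT1-1 and -0.28 for siFAT1-2, with 76 and 69 of 79 genes below 0 against 50.6% and 52.3% of all genes. No gene passed the adjusted test with edgeR (0.0836% and 0.515% of all genes did), and 5 and 12 were lower at an unadjusted P under 0.05, against 3.99% and 11.5% of all genes. None was higher at that level (3.25% and 10.1% of all genes). Without overlap between siFAT1-1 and NC, 30 genes were lower and 1 higher, against 18% and 18.1% of all genes, and for siFAT1-2 24 were lower and 2 higher, against 23.6% and 20.7%. For siFAT1-1 DESeq2 and limma-voom called 0, and for siFAT1-2 DESeq2 called 1, RPL27A (9.81% of all genes), and limma-voom 0. The genes nearest to a call were RPL11 for siFAT1-1 (-0.63 ± 0.23, adjusted p = 0.557) and RPL27A for siFAT1-2 (-0.92 ± 0.24, adjusted p = 0.0924). Above 0 it was RPS10 for siFAT1-1 (0.41 ± 0.54, adjusted p = 0.930). These medians turned on the NC library. Without NC repeat 2 they were -0.08 and -0.04 with 0 calls (0.59% and 0.366% of all genes), and without NC repeat 1 they were -0.55 and -0.54 with 4 and 24 calls, where 5.39% and 17.1% of all genes were called. Both siRNAs were compared with the same NC libraries.

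Within HN30 the siRNAs stood on opposite sides of NC. For siFAT1-1 the median was -0.21, with 76 of 79 genes below 0 (49.6% of all genes), and in 49 genes both siFAT1-1 libraries were below both NC libraries, where 30.4% of all genes had that order, and in 0 genes above (30% of all genes). For siFAT1-2 the median was 0.17, with 62 of 79 above 0, and in 34 genes both siFAT1-2 libraries were above both NC libraries, against 24% of all genes, while 5 had them below (25.2%). No single gene passed the adjusted test with edgeR in either comparison, where 1.36% and 0.139% of all genes did. At an unadjusted P under 0.05, 4 genes were lower for siFAT1-1 (9.58% of all genes) and 3 higher for siFAT1-2 (6.81% of all genes). RPL39L, a paralog of RPL39 that is known from testis and some tumours, was nearest to a call for siFAT1-1 (-1.19 ± 0.37, adjusted p = 0.144), and RPS27L, a paralog of RPS27, for siFAT1-2 (1.68 ± 0.56, adjusted p = 0.179). On the other side of 0 they were RPL23A for siFAT1-1 (0.06 ± 0.17, adjusted p = 0.912) and RPS4X for siFAT1-2 (-0.69 ± 0.34, adjusted p = 0.347). DESeq2 called RPL39L and RPS27L, each in its comparison, and no other member (8.04% and 6.55% of all genes), and limma-voom called 0. With 1 library left out, the siFAT1-1 median was between -0.28 (without NC repeat 2) and -0.12 (without NC repeat 1), and the siFAT1-2 median between 0.071 (without siFAT1-2 repeat 1) and 0.27 (without siFAT1-2 repeat 2).

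**Figure D2:**
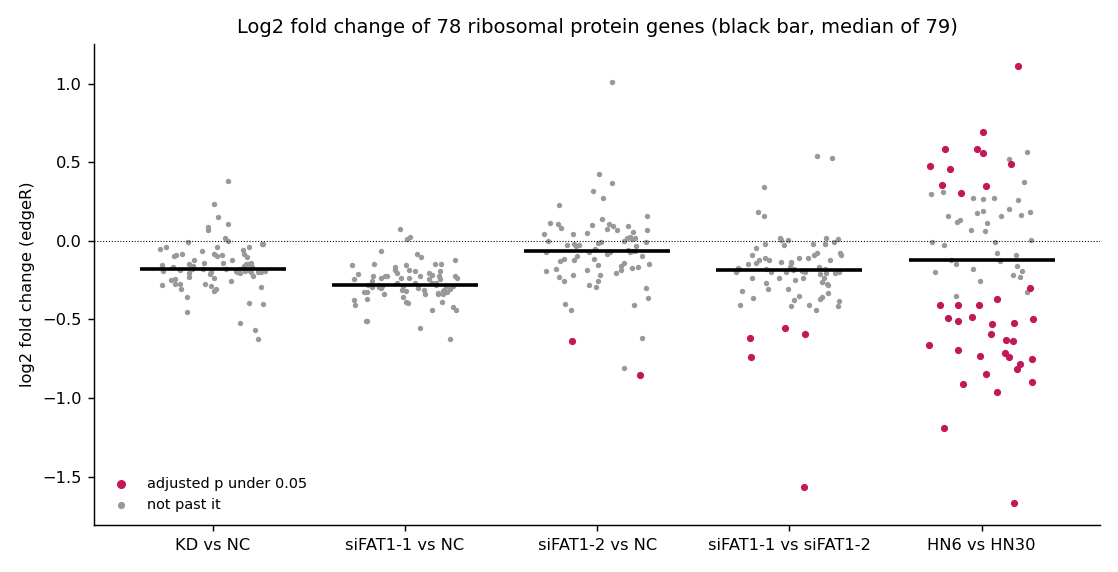
Points are the log2 fold changes of 78 tested genes from edgeR in 5 comparisons, coloured where the adjusted p was under 0.05, with the median of all 79 as a black bar. The medians were -0.18 for FAT1-KD, -0.28 for siFAT1-1, -0.06 for siFAT1-2, -0.18 for siFAT1-1 against siFAT1-2 and -0.12 for HN6 against HN30, with 0, 0, 2, 6 and 39 of all 79 genes past the test.

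With both lines in one fit, siFAT1-1 against NC had a median of -0.28, with 76 of 79 genes below 0 against 50.3% of all genes. In 25 genes all siFAT1-1 libraries were below both NC libraries of their line, an order that 10.4% of all genes had, and in 0 genes were they above (10.2% of all genes). No gene passed the adjusted test with edgeR or limma-voom, where 3.15% of all genes did with edgeR, and at an unadjusted P under 0.05, 10 were lower (10% of all genes) and 0 higher (8.75%). DESeq2 called 1, RPL24, and 8.29% of all genes. The median was -0.15 without HN6 NC repeat 2 and -0.35 without HN6 NC repeat 1. RPL24, a large subunit protein at the face between the subunits, was at 325 and 423 CPM in HN6 NC, at 249 and 274 in HN6 siFAT1-1, at 282 and 249 in HN30 NC and at 202 and 174 in HN30 siFAT1-1. Both siFAT1-1 libraries were below both NC libraries in each line. Its log2 fold change was -0.51 ± 0.15, with an adjusted p of 0.0841 from edgeR. RPL23A, a protein near the exit of the nascent chain, had the smallest P among the 3 genes above 0, at 0.07 ± 0.11 (adjusted p = 0.768).

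For siFAT1-2 against NC, RPS4X and RPL27A fell while the other members were spread about 0. The median was -0.06 with 51 of 79 below 0 (50.2% of all genes), and the 2 genes were the only members past the adjusted test with edgeR, at which 11.3% of all genes passed, 4.15% higher and 7.12% lower. At an unadjusted P under 0.05, 4 members were higher and 5 lower, against 12.7% and 15.6% of all genes. In each line, NC stayed above siFAT1-2 without overlap in 4 members (RPS4X, RPL27A, RPL27 and RPL9, the last 2 named after their values were seen), against 12.6% of all genes. Scaled by total counts the median was 0.06 and that of all genes 0.12, so the median of the members relative to all genes was -0.06 under either scaling. With 1 library left out the median was between -0.15 (without HN30 siFAT1-2 repeat 1) and 0.081 (without HN6 NC repeat 2).

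RPS4X, the X-linked small subunit protein S4 (X:72255679-72277248 on the minus strand), was at 678 and 1002 CPM in HN6 NC, at 639 and 647 in HN6 siFAT1-1, and at 265 and 567 in HN6 siFAT1-2. In HN30 it was at 572 and 596 in NC, at 513 and 460.1 in siFAT1-1, and at 292 and 431 in siFAT1-2. The 4 siFAT1-2 libraries were the lowest of their line, and repeat 1 was lower than repeat 2 in each line. The log2 fold change was -0.85 ± 0.22, with an adjusted p of 0.0325. The call held in 4 of the 12 leave-one-out fits, with adjusted p-values between 0.0219 and 0.0887 over all 12 and log2 fold changes between -1.03 and -0.65. It was kept without HN6 NC repeat 1, HN6 siFAT1-1 repeat 2, HN6 siFAT1-2 repeat 2 or HN30 siFAT1-2 repeat 2, and it was lost with total counts (adjusted p = 0.0514).

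RPL27A, a large subunit protein (11:8682788-8714759 on the plus strand), was at 599 and 819 CPM in HN6 NC, at 572 and 541 in HN6 siFAT1-1, and at 294 and 456 in HN6 siFAT1-2. In HN30 it was at 727 and 617 in NC, at 601 and 545 in siFAT1-1, and at 492 and 550.2 in siFAT1-2. All siFAT1-2 libraries were below both NC libraries of their line, but in HN30 they overlapped with siFAT1-1. The log2 fold change was -0.64 ± 0.18, with an adjusted p of 0.0402. It held in 2 of the 12 leave-one-out fits, those without HN30 NC repeat 2 or HN30 siFAT1-2 repeat 2 (adjusted p of 0.0376 to 0.0973 over all 12), and was lost with total counts (adjusted p = 0.0628).

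RPL7, a large subunit protein, was the one member with every siFAT1-2 library above both NC libraries of its line, an order that 9.42% of all genes had. It was at 522 and 488 CPM in HN6 NC against 599 and 675 in HN6 siFAT1-2, and at 985 and 968 in HN30 NC against 1423 and 1166 in HN30 siFAT1-2. Its log2 fold change of 0.37 ± 0.12 did not pass with edgeR (adjusted p = 0.0714). DESeq2 called it, as it did RPS4X and RPL27A, and 18.8% of all genes.

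**Figure D3:**
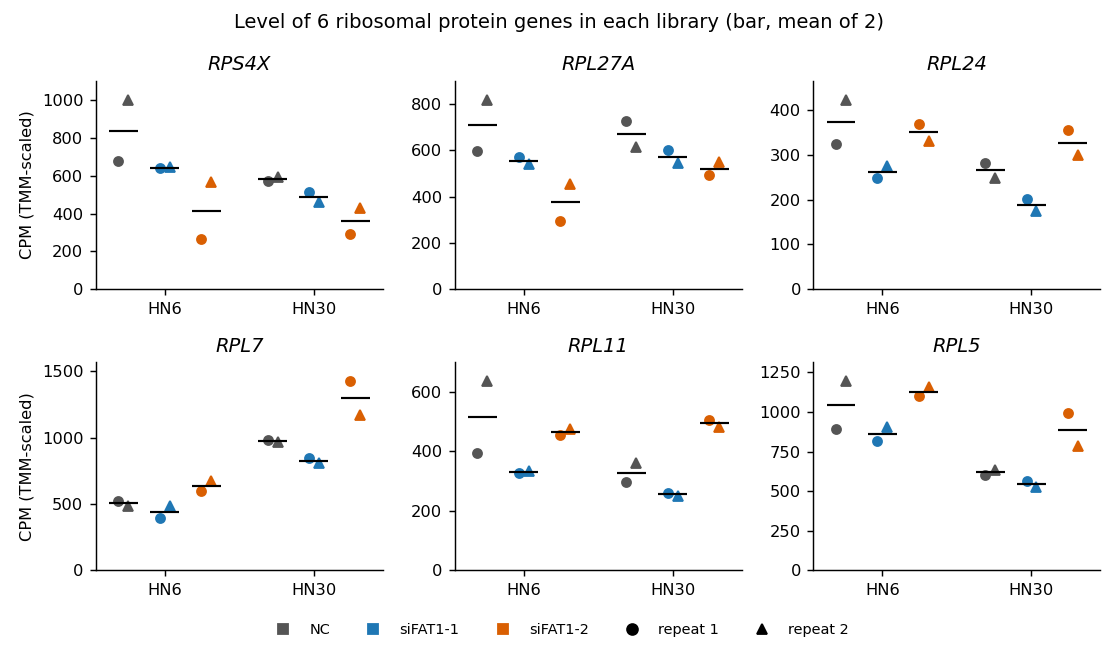
CPM of RPS4X, RPL27A, RPL24, RPL7, RPL11 and RPL5 in each of the 12 libraries, with circles for repeat 1, triangles for repeat 2 and a bar at the mean of the 2 repeats. RPS4X and RPL27A were lowest on average in siFAT1-2 in both lines, and the other 4 genes were lower in both siFAT1-1 libraries than in both siFAT1-2 libraries of the same line.

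The direct comparison of the siRNAs had a median of -0.18, with 69 of 79 genes lower in siFAT1-1 than in siFAT1-2 (51.3% of all genes). NC libraries were not compared here but entered the fit through the line term, the scaling, the count filter and the spread. Past the adjusted test with edgeR, 6 were lower in siFAT1-1 and 0 higher, against 7.14% and 9.62% of all genes, or 16.8% in all. The members were thus called lower about as often as all genes, and called in either direction less often. The calls named below do not set the members apart from other genes. At an unadjusted P under 0.05, 16 were lower and 1 higher, against 15.9% and 17.5% of all genes. In 15 members the siFAT1-1 libraries were below those of siFAT1-2 in each line without overlap, and in 1, RPS4X, above, against 15.6% and 17.9% of all genes. Among the called members were RPL7, RPL24, RPL11, RPL5 and RPS27L. The count was 7 with DESeq2 (25% of all genes), 4 with limma-voom (18.7%), 15 with total counts (17.7%) and 1 to 12 when 1 library was left out (6.65% to 22.7%). The median was -0.095 without HN30 siFAT1-2 repeat 1 and -0.25 without HN6 siFAT1-2 repeat 1. RPL7 was called in all 12 of those fits, RPL24 in 10, and RPL11 and RPL5 in 8 each.

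RPL11 and RPL5, the pair that binds 5S rRNA, were both among them. RPL11 was at 328 and 333 CPM in HN6 siFAT1-1 and at 455 and 476 in HN6 siFAT1-2, and at 259 and 250.3 against 506 and 481 in HN30. In each line the siRNAs did not overlap, and in HN6 the NC repeats, at 393 and 634, lay on both sides of siFAT1-2. The log2 fold change of siFAT1-1 over siFAT1-2 was -0.74 ± 0.18, with an adjusted p of 0.0188.

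RPL5 was at 815 and 908 CPM in HN6 siFAT1-1 and at 1102 and 1155 in HN6 siFAT1-2, and at 564 and 524 against 991 and 786 in HN30. Its NC values were 892 and 1193 in HN6 and 605 and 636 in HN30. The siFAT1-2 libraries were above both NC libraries in HN30 and within their range in HN6. The log2 fold change between the siRNAs was -0.55 ± 0.15, with an adjusted p of 0.0239. Against NC the same genes were at -0.51 (RPL11) and -0.23 (RPL5) for siFAT1-1 and at 0.23 and 0.32 for siFAT1-2, none of which passed.

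RPL7 was at 394 and 485 CPM in HN6 siFAT1-1 and at 842 and 807 in HN30 siFAT1-1, and its log2 fold change over siFAT1-2 was -0.59 ± 0.12 (adjusted p = 0.00866). RPL24 was at 369 and 332 CPM in HN6 siFAT1-2 and at 355 and 300.4 in HN30 siFAT1-2, above the siFAT1-1 values given earlier, with a log2 fold change of -0.62 ± 0.15 (adjusted p = 0.0160).

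RPS27L was at 14.8 and 19.03 CPM in HN6 siFAT1-1 and 32.5 and 18.4 in HN6 siFAT1-2, and at 12.2 and 9.60 against 90.6 and 26.5 in HN30. The HN6 libraries overlapped and those of HN30 did not. Its log2 fold change was -1.57 ± 0.47 (adjusted p = 0.0399), which was lost in 6 of the 12 leave-one-out fits.

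The shared shift was lessened, but not wholly removed, by using the summed count of the 81 genes as library size. The median of the members against NC was then 0.003 for siFAT1-1, 0.04 for siFAT1-2 and 0.06 for siFAT1-2 within HN6. Under that scaling, chosen after seeing the data, RPL27A was still lower in siFAT1-2 than in NC (-0.54, adjusted p = 0.0410), while RPS4X was at -0.75 with an adjusted p of 0.0529. RPL27A was the only member called there, where 4.67% of all genes were called. Between the siRNAs 6 of the 79 members passed, against 13.8% of all genes. Among them RPL11, RPL24 and RPL5 were again lower in siFAT1-1 and RPS4X and RPL27A were higher, while RPL7 (adjusted p = 0.0931) and RPS27L (0.0662) were not called. Against NC, siFAT1-1 had 0 calls (3.52% of all genes).

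Members with known roles outside the bulk of the set followed their line and library. RPLP0, which anchors the stalk where elongation factors bind, was at 1711 and 2858 CPM in HN6 NC and at 1042 and 1695 in HN6 siFAT1-2. It was at 1677 and 1575 in HN30 NC and at 1451 and 1601 in HN30 siFAT1-2. Repeat 1 of HN6 siFAT1-2 was the lowest of the 12 libraries. There, 5 members were more than 1 log2 unit below the NC mean of the line, namely RPS4X (-1.63), RPL27A (-1.25), RPL39L (-1.23), RPL12 (-1.18) and RPLP0 (-1.09). RPL12, which sits at the base of the stalk, is named after its value was seen. The acidic stalk proteins RPLP1 and RPLP2 were at 811 and 462 CPM in that library. They were at 919.7 and 447 CPM in HN6 NC repeat 1 and at 1518 and 574 CPM in HN6 NC repeat 2. Relative to the NC mean they were at -0.54 and -0.13.

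RPS6, the substrate of the S6 kinases, was lowest in HN6 siFAT1-1 repeat 1 (448 CPM) and highest in HN30 siFAT1-2 repeat 1 (993 CPM). RPSA ranged from 804 CPM in HN6 siFAT1-2 repeat 1 to 2099.8 CPM in HN6 NC repeat 2, both in the same line. Further members ranged as follows over the 12 libraries. RPS19 and RPS14, small subunit genes known from Diamond-Blackfan anemia and from the 5q deletion of myelodysplasia, were at 489 to 1017 and 277 to 597 CPM. RPL13A, known from transcript-selective control of translation in myeloid cells, was at 891 to 1701 CPM. RPL22 and RPL26 were at 229.5 to 386 and 417 to 634 CPM, RPL29 at 252 to 630.5 CPM, and RPL41, the smallest of the proteins, at 339 to 635 CPM. RPL39 was at 88.4 to 149 CPM against 5.67 to 21.2 for its paralog RPL39L, and RPS27 at 59.4 to 129.8 CPM against 9.60 to 90.6 for RPS27L. With edgeR and TMM scaling on all 12 libraries, none of the members in this paragraph passed between the siRNAs or against NC, apart from RPS27L. DESeq2 also called RPL39L for siFAT1-1 in HN30.

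Between HN6 and HN30 more single ribosomal protein genes were called than between siRNA groups, and the same was true of all genes. The lines were compared over more libraries than the single siRNAs. Of the 79 genes, 39 passed the adjusted test with edgeR, 28 lower and 11 higher in HN6, where 27.9% and 28.6% of all genes did. Below 0 were 45 of the 79, against 50% of all genes. Their median was -0.12, with 0.00 for the large subunit genes and -0.17 for the small. It was -0.25 without HN6 NC repeat 2, -0.033 without HN6 siFAT1-2 repeat 1 and 0.018 with the summed count of the members as library size. The share of members that passed was below that of all genes (56.6%). With the summed count of the members as library size the calls were 24 in each direction (52.6% of all genes called). With total counts 33 were lower and 8 higher (56.5% of all genes called), so the balance of higher and lower calls depends on the scaling. In 11 genes all HN6 libraries were below all HN30 libraries and in 4 they were above, against 13% and 12.7% of all genes.

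**Figure D4:**
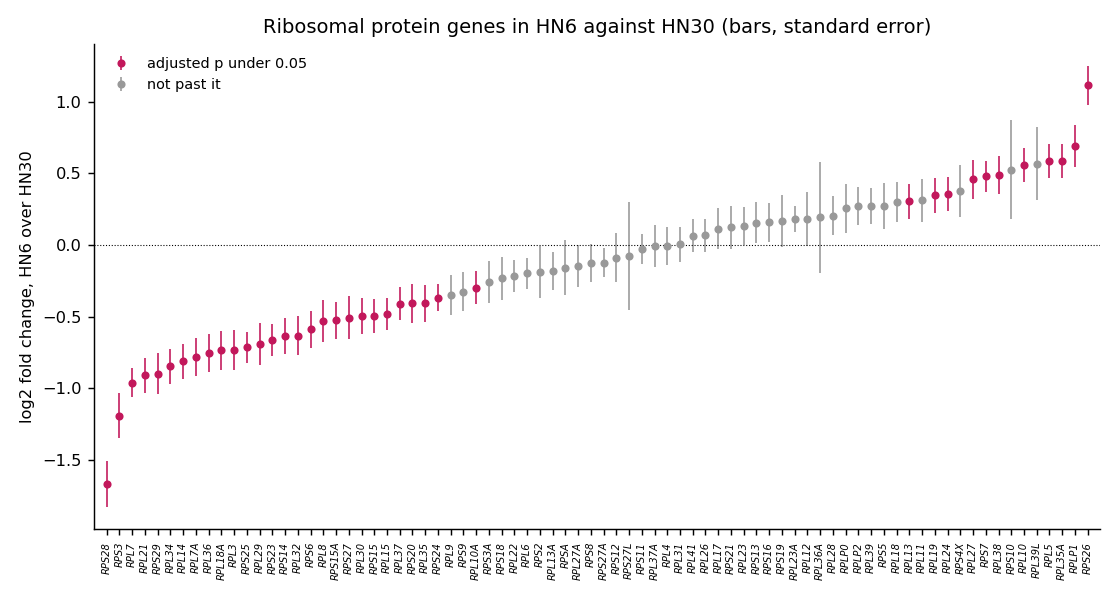
Log2 fold change of HN6 over HN30 for 78 tested genes, sorted, with standard errors from edgeR and colour for an adjusted p under 0.05. RPS28 at -1.67 is the lowest and RPS26 at 1.12 the highest.

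The genes lowest in HN6 were RPS28, RPS3 and RPL7. RPS28, a small subunit protein at the mRNA exit, had HN6 values of 24.4 to 46.0 CPM and HN30 values of 90.6 to 142 CPM, so the lines did not overlap. Its log2 fold change was -1.67 ± 0.16 (adjusted p = 4.35e-06). RPS3, at the mRNA entry of the small subunit and also known from DNA repair, was at 376 to 726 CPM in HN6 and 859.9 to 1263 CPM in HN30 (-1.19 ± 0.16, adjusted p = 4.91e-05). RPL7 was at 394 to 675 CPM against 807 to 1423 CPM (-0.96 ± 0.10, adjusted p = 8.81e-06). RPL3, which lies close to the peptidyl transferase centre, was also lower in HN6 (-0.73 ± 0.14, adjusted p = 0.000731), as were RPS6 (-0.59, adjusted p = 0.00217), RPS14 (-0.64, adjusted p = 0.000941) and RPL29 (-0.69, adjusted p = 0.00154).

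The genes highest in HN6 were RPS26, RPLP1 and RPL35A. RPS26, which contacts the mRNA upstream of the start codon, was at 319.6 to 429 CPM in HN6 and at 120.1 to 188 CPM in HN30, with no overlap (1.12 ± 0.14, adjusted p = 2.65e-05). RPLP1 was at 811 to 1518 CPM against 494 to 735 CPM (0.69 ± 0.15, adjusted p = 0.00178), and RPL35A was higher by 0.59 ± 0.12 on the log2 scale (adjusted p = 0.00126). RPL10, a late-joining large subunit protein on the X chromosome, was at 919 to 1496 CPM against 603 to 831 CPM (0.56 ± 0.12, adjusted p = 0.00146). RPL5 (0.59, adjusted p = 0.00122) and RPL38 (0.49, adjusted p = 0.00730) were higher as well. RPS4X (0.38) and RPL27A (-0.15), the genes that fell with siFAT1-2, did not pass between the lines.

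The repeats of each line, made at separate times, differed in opposite directions. In HN6 the median of repeat 2 over repeat 1 was 0.18, with 73 of 79 genes above 0, and in 23 genes repeat 2 was higher in all 3 conditions, against 17% of all genes. In HN30 the median was -0.16, with 69 genes below 0, and in 53 genes repeat 2 was lower in all 3 conditions, against 15.3% of all genes. No gene passed the adjusted test with edgeR, DESeq2 or limma-voom in either line. At an unadjusted P under 0.05, 5 genes were higher in HN6 (6.34% of all genes), led by RPSA (0.56 ± 0.19, adjusted p = 0.408), and 1 was higher and 2 lower in HN30 (2.31% and 2.29% of all genes), led by RPS27L (-1.01 ± 0.33, adjusted p = 0.926) and RPL36A (1.02 ± 0.42, adjusted p = 0.926). Without HN6 NC repeat 2 the HN6 median was 0.04, and without HN6 siFAT1-1 repeat 1 it was 0.27.

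Groups of members by sequence feature had like medians. Members with the start motif had a median of -0.27 for siFAT1-1 and -0.04 for siFAT1-2 (46 genes), and those without it of -0.25 and -0.01 (17 tested genes). The 28 genes that hold snoRNA genes within their span, 60 in all, were at -0.29 and -0.12, and the 51 tested genes that hold none at -0.27 and -0.03. By length, the 45 members with transcripts under 1000 nt were at -0.26 for siFAT1-1, and the 13 of 2000 to 4000 nt were at -0.30, whereas the 836 other genes under 1000 nt were at -0.02. In HN6 NC repeat 2 these other short genes stood at 0.11 relative to the NC mean and the short members at 0.22, and in HN30 siFAT1-2 repeat 1 they stood at 0.06 and 0.27. For siFAT1-2 against NC the other short genes were at -0.13 and the short members at -0.065, and within HN6 they were at -0.25 and -0.34. No test of these groups was made.

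Genes next to the family in function gave a mixed picture. Of 20 other translation genes that are known for TOP mRNAs, 17 were below 0 for siFAT1-1 with a median of -0.26, and PABPC1, the poly(A)-binding protein, fell (-0.97 ± 0.15, adjusted p = 0.00638). For siFAT1-2 their median was -0.01. EIF4A2, a helicase of initiation, rose (0.66 ± 0.20, adjusted p = 0.0487) and EIF3F, a subunit of eIF3, fell (-1.46 ± 0.28, adjusted p = 0.00841). Between the siRNAs 6 of the 20 were lower and 1 higher in siFAT1-1 past the adjusted test, against 7.14% and 9.62% of all genes. Against NC the share of all genes called was 3.15% for siFAT1-1 and 11.3% for siFAT1-2.

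Among 6 ribosomal protein genes whose symbols fall outside the rule, RPL22L1 (-0.83 ± 0.19, adjusted p = 0.0133) and RPL7L1 (-0.66 ± 0.18, adjusted p = 0.0254) were lower in siFAT1-1 than in siFAT1-2 and none passed against NC. Of 7 chaperones that escort ribosomal proteins, PDCD2L passed in a comparison of siRNAs or with NC, lower in siFAT1-1 than in siFAT1-2 (-0.80 ± 0.22, adjusted p = 0.0307). Among 9 regulators of TOP mRNAs and S6 kinase, RPS6KB2, an S6 kinase, fell with siFAT1-2 against NC (-0.58 ± 0.16, adjusted p = 0.0382), and was higher in siFAT1-1 than in siFAT1-2 (0.65 ± 0.16, adjusted p = 0.0190). CNBP, an RNA-binding protein, was lower in siFAT1-1 than in siFAT1-2 (-0.55 ± 0.12, adjusted p = 0.00967). Of all genes, 16.8% passed between the siRNAs and 11.3% for siFAT1-2 against NC.

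Of the 78 mitochondrial ribosomal protein genes, 58 were lower in siFAT1-1 than in siFAT1-2 (51.3% of all genes), and their median was -0.23. Past the test 12 were lower and 1 higher, against 7.14% and 9.62% of all genes. Between the lines 34 mitochondrial genes were higher and 8 lower in HN6 past the test, against 28.6% and 27.9% of all genes. Their median was 0.28, where that of the cytosolic genes was -0.12, or -0.25 to -0.033 with 1 library left out. The difference between the sets was not tested. The 83 tested nuclear genes of oxidative phosphorylation had medians of -0.11 for each siRNA against NC (1 call for siFAT1-1 and 6 for siFAT1-2), and the 37 tested proteasome genes of -0.05 and -0.17 (2 and 4 calls). In these comparisons 3.15% and 11.3% of all genes were called.

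The members moved with each other across libraries. Pearson's r of each gene with the median of the 79 genes, over the 12 libraries centred within each line, was above 0.5 in 70 members and above 0.9 in 26, where 14.2% and 0.147% of the 14281 other genes tested reached these values. The points share libraries, depth and scaling factors, and the members are part of the median, so this is a description. The members least like the median were RPL23A (0.00), RPL36A (0.03), RPS10 (0.23) and RPS4X (0.23). The 5 other genes most like it were EEF1G (0.96), THAP11 (0.96), SF3B5 (0.95), RACK1 (0.93), whose product is itself part of the small subunit, and MRPS5 (0.93).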

How the data were processed

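Poly(A) RNA of 12 libraries (2 OSCC lines, 3 siRNAs, 2 repeats) was sequenced. The deposited table holds raw counts per gene, which the authors made from reads on hg38. HISAT2 and featureCounts are named in the submitters' processing notes, and versions, annotation and strand setting are not given in the sources used here. Counts were scaled by TMM and tested with edgeR 4.0.16 (R 4.3.3), by the quasi-likelihood test with Benjamini-Hochberg adjustment over all 14360 genes that passed filterByExpr (minimum count 10), at a threshold of 0.05. The siRNA comparisons were fitted over all libraries with cell line as a covariate. CPM are TMM-scaled, a shift is a difference of log2 CPM (prior count 2), and errors are SE. Alternatives used limma-voom (limma 3.58.1), DESeq2 1.42.0, other scalings, no filter, a replicate block and each library left out. The fits were tested on simulated data. Gene positions are from GENCODE 44 (GRCh38), in which all 81 members were found.

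Values of some genes are not reported here. The members and gene lists were chosen with earlier results of these data known. Named members were those of known special role, those past the test (up to 6, otherwise the 3 highest and 3 lowest), or the smallest P in each direction where none passed, and the 3 most and least abundant per kb. Lists covered squamous and other cell markers, ribosomal protein genes outside the symbol rule, TOP genes, chaperones, TOP and S6 kinase regulators, mitochondrial ribosomal proteins, oxidative phosphorylation and the proteasome. Repeats were made at separate times per the labels, so the numbers pair libraries, and the deviations of same-numbered libraries correlated at 0.08 to 0.22 in HN6 and -0.03 to 0.39 in HN30.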

Additional observations from a re-analysis of the deposited data

Results flagged for a closer look

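For siFAT1-2 against NC, 3 members had both siFAT1-2 libraries below both NC libraries in HN6 and above both in HN30, an order that 1.38% of all genes had. The HN6 log2 fold change minus that of HN30 was -0.63 for RPS16, -0.63 for RPL7A and -0.67 for RPS9. RPS16, a small subunit protein, was at 628 and 914 CPM in HN6 NC against 563 and 576 in HN6 siFAT1-2, and at 586 and 559 in HN30 NC against 720.1 and 594 in HN30 siFAT1-2. RPL7A, a large subunit protein, was at 571 and 843 CPM against 536 and 548 in HN6, and at 1000.05 and 1011 against 1247 and 1135 in HN30. RPS9, a small subunit protein, was at 419.5 and 562 CPM against 373 and 352 in HN6, and at 535 and 478 against 640.4 and 547 in HN30. These differences between the lines were not tested, and no single comparison within a line passed for these genes. In HN6 the siFAT1-2 libraries were nearer to NC repeat 1 than to NC repeat 2 in all 3 genes. The HN6 fold changes thus rest largely on NC repeat 2.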

How the results depend on the processing

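Medians and counts of calls under the alternatives were set against the main fit. Of these, 422 values stayed within the spread between libraries (0.16 log2 units) or within 1.5 times the count, and 32 did not. That spread is near the size of many of the medians, and many counts were 0, so staying is no sign of a stable result. The FAT1-KD median counted as staying, though it was -0.23 to -0.03 with 1 library left out. So did the siFAT1-2 median, whose sign changed. DESeq2 called 1 member for siFAT1-1 (RPL24), 4 for siFAT1-2, and 1 each for siFAT1-2 in HN6 (RPL27A), siFAT1-1 in HN30 (RPL39L) and siFAT1-2 in HN30 (RPS27L). With total counts siFAT1-2 had 1 call (RPL7, higher, where 10.6% of all genes were called), siFAT1-1 against siFAT1-2 had 15, and the HN6 siFAT1-2 median was -0.088, with all genes at 0.14. Leaving out 1 library gave 0 to 2 calls for siFAT1-2 and 1 to 12 for siFAT1-1 against siFAT1-2 (1 without HN30 siFAT1-1 repeat 2, 12 without HN6 NC repeat 2). In HN6 it gave 0 to 4 calls and medians of -0.55 to -0.082 for siFAT1-1, and 0 to 24 calls and medians of -0.54 to -0.040 for siFAT1-2. The median difference between the lines in the effect of FAT1-KD was then -0.49 to -0.040. The ends of these medians were the fits without either HN6 NC repeat. The siFAT1-2 median was -0.15 to 0.08, above 0 without HN6 NC repeat 2. Scaled to the sum of the members, signs turned for RPL5 (0.033) and RPL7 (0.019) under siFAT1-1. With the replicate block the median was -0.17 for FAT1-KD, -0.26 for siFAT1-1 and -0.06 for siFAT1-2, with 0, 0 and 2 calls, and between the siRNAs 6 calls. The block could not be used for the comparison of the repeats themselves. Between the lines it gave 10 higher and 29 lower calls in place of 11 and 28, and no other count of calls changed. The causes were not tested.

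Counting error is small at these depths for most members, and the 2 repeats per condition set the precision.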
